A study of Arabidopsis thaliana with 12 samples.

Results

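The basic leucine zipper (bZIP) genes of Arabidopsis thaliana were examined for trimethylation of histone H3 at lysine 27 (H3K27me3), the chromatin mark laid down by Polycomb repressive complex 2, and for binding of the B3-domain repressors VAL1 and VAL2. Members were the TAIR10 protein-coding genes whose symbol held "BZIP" or whose product named a basic leucine zipper. This gave 66 of 27444 protein-coding genes on the 5 nuclear chromosomes, after 3 further matching genes were left out by name. Of the 66 members, 53 belong to a classified bZIP group, from group A to group S, and 13 to none. Several of those 13 carry a bZIP product name together with another domain (DUF630 and DUF632, DUF1664 or W2), so that the annotation rather than a known DNA-binding domain put them here. In the other direction, 17 classified bZIP genes, among them ABF1 to ABF4, GBF1 to GBF3 and HYH, have annotations without these words and lie outside the rule.

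All plants were 14-day-old Col-0 seedlings grown on agar medium with 1% sucrose, under 16 h of light and 8 h of dark at 22 °C. Wild type and the val1val2 double mutant were precipitated for H3K27me3, with 2 libraries each, to ask where the mark depends on the VAL proteins. VAL1-GFP in the val1 background (2 libraries) and VAL2-GFP in the val2 background (1 library analysed) were precipitated for the GFP tag, to ask where the proteins bind. The labels give no promoter for either transgene, and they do not say that replicates were separate sets of plants, so that differences between them may measure technical error alone.

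bZIP proteins bind DNA as dimers through a basic region followed by a leucine zipper, often at sequences with an ACGT core. In Arabidopsis, group A factors act in abscisic acid (ABA) signalling, with FD at the floral transition, group C and S1 factors pair in the response to low energy and in seed maturation, TGA factors of group D act in defence and flower development, group B/K factors act in endoplasmic reticulum stress, and HY5 of group H acts in light signalling. VAL1 and VAL2 recognise the RY element through the B3 domain and are known for silencing the seed programme after germination. In lists from whole seedlings, fewer cells carrying a mark and less mark per cell cannot be told apart.

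H3K27me3 peaks numbered 8324 and 8325 in the wild-type lists and 9925 and 10024 in the val1val2 lists. The VAL1-GFP lists held 21580 and 34554 summits and the VAL2-GFP list 30493. Replicate lists shared 87.0% of their combined covered length in wild type and 85.8% in val1val2, but 34.1% for VAL1-GFP. Read depth is unknown, because the lists give no totals. Peak lists do not show whether VAL1 and VAL2 are disrupted in val1val2, nor the tissue. Both genes were unmarked in wild type, whereas val1val2 had 42.3% ± 0.889 cover at VAL1 and 24.5% ± 1.29 at VAL2 (SD, n = 2).

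H3K27me3 was read as cover, the percentage of a gene from transcription start to end that lay under peaks. A gene was called marked in a library at a cover of at least 20%, and marked in a genotype when both of its libraries passed. Of the 66 bZIP genes, 17 were marked in wild type, which is 25.8% beside 25.6% of all genes. In val1val2, 19 were marked, 28.8% beside 30.4% of all genes. The mark was present in all 4 libraries at 15 bZIP genes (22.7%, beside 23.0% of all genes). It was absent by this call from every library at 45 (68.2%, beside 65.0%), and 43 of these had no peak over the gene at all (65.2%, beside 61.6%). In each of these shares the family lay close to the genome. Counting only peaks with a −log10 q of at least 10, 10 bZIP genes were marked in wild type (beside 11.7% of all genes) and 9 in val1val2 (beside 12.0%). Losses at that threshold were 3, at bZIP8, bZIP44 and DPBF2 (beside 2.99% of all genes).

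**Figure D1:**
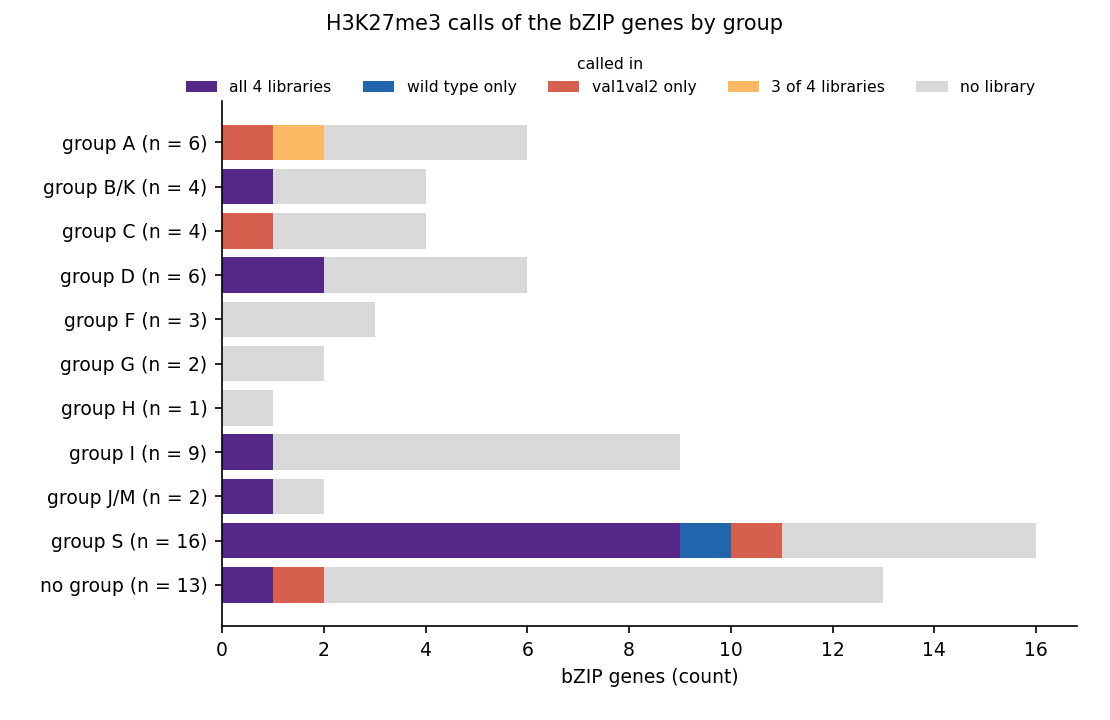
H3K27me3 calls of the 66 bZIP genes by classified group. Each bar is a group, its length the number of genes, and its colours show in which libraries a gene was called marked. Group S holds 10 of the 17 genes marked in wild type, while groups C, F, G and H hold none.

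The marked members were spread unevenly over the groups. Group S supplied 10 of the 17 genes marked in wild type from its 16 members: bZIP3, bZIP4, bZIP5, bZIP8, bZIP42, bZIP43, bZIP44, bZIP48, bZIP58 and bZIP75. The 50 members outside group S supplied the other 7, 14.0% of them. These were DPBF2 of group A, BZIP49 of group B/K, TGA9 and TGA10 of group D, AT2G21235 of group I, AT5G07160 of group J/M and AT1G35490, which is in no group. None of the 4 members of group C, 3 of group F, 2 of group G or of HY5, the only member of group H, was marked in wild type.

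Group S genes also differ from the rest of the family in structure. Of the 16 members of group S, 15 have a single coding exon, against 1 of the other 50, and their median length is 925.5 bp against 2582 bp. Over all genes with 1 coding exon 34.4% were marked in wild type, against 10 of the 16 bZIP genes of that kind, all 10 from group S. Over all genes with 2 or more coding exons 23.0% were marked, against 7 of 50 bZIP genes (14.0%). Marked genes were shorter than unmarked ones in the genome too, with medians of 1620 and 2332.5 bp, and among the bZIP genes these medians were 1086 and 2530 bp. Cover is a percentage of gene length, so a peak of a given size covers more of a short gene. When any cover was enough for a call, the same 17 bZIP genes were marked in wild type, so the threshold left out no longer bZIP gene. At a cover of at least 50%, 13 were marked. Beyond these thresholds, the part of gene length in these counts was not tested.

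VAL1 binding was read from summits between 1000 bp upstream of the start and the end of the gene. Fold enrichments and −log10 q of summits and peaks are the authors' values over the local background of their peak caller. The fold given for a gene is that of the strongest summit in each list, and the lists need not place it at the same site. A summit lay in both VAL1 lists at 29 bZIP genes (43.9%, beside 38.2% of all genes) and in the VAL2 list at 41 (62.1%, beside 53.4%). VAL1 and VAL2 shared 27 of these genes (40.9%, beside 31.0%), and 14 had no summit in any of the 3 lists (beside 26.3% of all genes). Most of these summits were weak. At a −log10 q of at least 10, VAL1 was left with 1 bZIP gene, DPBF2 (beside 3.32% of all genes), and VAL2 with 7, namely bZIP69, bZIP44, TGA7, bZIP2, BZIP24, BZIP49 and BZIP53 (beside 6.80%).

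DPBF2 (also bZIP67), an activator of seed maturation genes, had the strongest VAL1 summits of the 66 members. Their fold enrichments were 4.14 and 8.13, at −18 and −29 bp from the transcription start, with −log10 q of 22.4 and 44.4. The VAL2 summit, at −73 bp, had a fold enrichment of 2.54. bZIP3 came next, with strongest VAL1 folds of 2.46 and 4.54, at 25 and 364 bp from the start. AT2G27090, a gene of the DUF630 and DUF632 kind, followed with 2.00 and 4.00. The other 26 members bound by VAL1 had folds between 1.35 and 2.57 in replicate 1 and between 1.73 and 3.86 in replicate 2. In all but 1 of the 29 genes the fold was higher in replicate 2, the longer list, and the exception was TGA10 with 2.57 and 2.52.

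**Figure D2:**
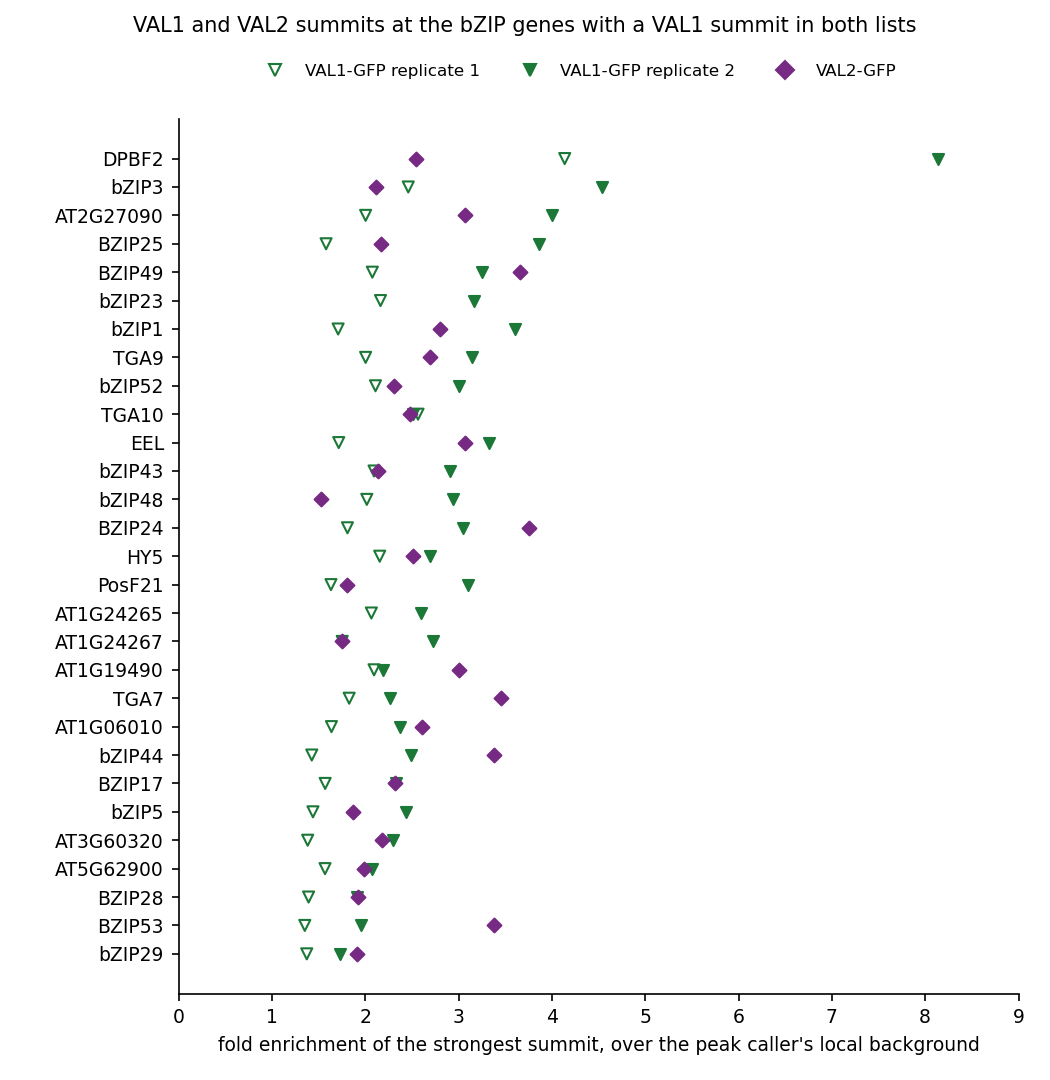
Fold enrichment of the strongest summit in each list at the 29 bZIP genes with a VAL1 summit in both lists, ordered by the VAL1 mean. Triangles are the 2 VAL1-GFP lists and diamonds the VAL2-GFP list, without a diamond where it had no summit; DPBF2 stands apart in VAL1 at 4.14 and 8.13, while in VAL2 other members, among them BZIP24, BZIP49 and TGA7, are higher than DPBF2.

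RY cores, TGCATG or CATGCA with overlapping matches counted separately, were looked for within 100 bp of the replicate 1 summit where both VAL1 lists placed a summit within 100 bp of each other. These numbered 24, at 19 bZIP genes. A core was found at 16 of the 24 (66.7%, exact 95% interval 44.7 to 84.4%), beside 49.1% of the 10106 such summits in the genome and 6.35% of windows of the same width centred 50 bp before each gene start. The interval covers counting error only and includes the genome share. At VAL2 summits in bZIP genes the share was 17.6%, beside 18.5% of all VAL2 summits. The 30-base stretches around cores are shown because they carry the sequence that the B3 domain reads. They are from the sites with a core whose VAL1 fold, averaged over both lists, was highest. Each is written along the strand of its gene, with the core nearest the midpoint of both summits in capitals.
DPBF2: aatactcgcatgCATGCAtatatatacacc
bZIP3: agagaaattgacCATGCAgccaaattatga
bZIP3: gtctcattctcaTGCATGgacaaccaatga
AT2G27090: caaatgctttatTGCATGttggtagtcaca
EEL: cacgcggatcttCATGCAaagctccccgat
TGA9: tgcttaatttggTGCATGtacatggtatgt
bZIP43: acacgttttagcTGCATGattgttagatgc

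On TAIR10 the DPBF2 stretch lies at chr3:16081930-16081959 on the minus strand, just upstream of the transcription start at 16081906, and the window of that summit held 3 cores. Both bZIP3 stretches are on the plus strand, at chr5:5168578-5168607 inside the gene and at chr5:5168199-5168228 at its start. The AT2G27090 stretch lies at chr2:11571887-11571916 on the minus strand, across the gene start. The EEL stretch lies at chr2:17130273-17130302 on the plus strand, near summits in an intron. The TGA9 stretch lies at chr1:2625464-2625493 on the minus strand, in the middle of the gene, where the window held 6 cores, and that of bZIP43 at chr5:15538988-15539017 on the minus strand, upstream of the start. Of the 19 genes, 13 had a core at 1 or more shared summits. The 6 with none were BZIP25, BZIP49, bZIP48, bZIP52, AT5G62900 and bZIP29.

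Between the genotypes, 1 bZIP gene was called lost (marked in both wild-type and in neither val1val2 library), 5.88% of the 17 marked in wild type beside 7.92% of all genes marked in wild type (2.03% of all genes). The gene was bZIP5 of group S, at chr3:18455231-18456125. Its cover was 100% and 78.7% in wild type and 0 in both val1val2 libraries, so that the means were 89.3% ± 15.1 and 0 (SD, n = 2). The 2 wild-type peaks, 4189 and 3471 bp long, reached 2760 and 2767 bp beyond the 3′ end of the gene. Their fold enrichments were 1.48 and 1.51, with −log10 q of 4.65 and 5.41. The folds were low, but the pileup, the coverage signal of the peaks, was 132 and 137. VAL1 summits lay at 260 and 579 bp from the start, 1 in each list and not at the same place. Their folds were 1.44 and 2.43, with −log10 q of 0.345 and 3.01, so bZIP5 had no VAL1 call at −log10 q of at least 2. The VAL2 summit at 661 bp had a fold of 1.86. Of all lost genes 74.6% had a VAL1 summit in both lists. No p is given for any gene, since the smallest that exact permutation (two-sided) allows for 2 against 2 is 0.333.

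Gains were called at 4 bZIP genes, 8.16% of the 49 unmarked in both wild-type libraries beside 8.82% of all such genes (6.42% of all genes). They were FD, BZO2H3, bZIP7 and AT4G39790, all with a cover of 0 in both wild-type libraries. None of the 4 had a VAL1 summit in both lists, beside 35.6% of all gained genes that had. FD and BZO2H3 had a VAL2 summit, at folds of 1.68 and 2.03.

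FD, the bZIP partner of the florigen FT at the shoot apex, had 58.9% and 60.6% cover in val1val2 (mean 59.7% ± 1.22, SD, n = 2). The peaks were 4186 and 4212 bp long and lay mostly upstream, starting 2961 and 2951 bp before the gene, with folds of 2.15 and 2.14. BZO2H3 (also bZIP63), a low-energy response factor phosphorylated by the kinase SnRK1, had 78.4% and 81.9% cover (80.1% ± 2.49, SD, n = 2) under peaks of 1449 and 1514 bp inside the gene. In both genes the val1val2 libraries were close to each other and far from wild type.

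The other gains were less even between replicates. bZIP7 had 90.3% cover in val1val2 replicate 1, under a peak of 6711 bp that also covered other genes and began 5447 bp upstream, but 26.7% in replicate 2, under a peak of 373 bp with a −log10 q of 1.34. Its mean was 58.5% ± 45.0 (SD, n = 2), and it was not called gained with equal numbers of peaks. AT4G39790, a gene of the DUF630 and DUF632 kind, had 58.5% and 92.0% cover (75.3% ± 23.6, SD, n = 2), since 2 separate peaks in replicate 1 were a single peak of 2858 bp in replicate 2.

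**Figure D3:**
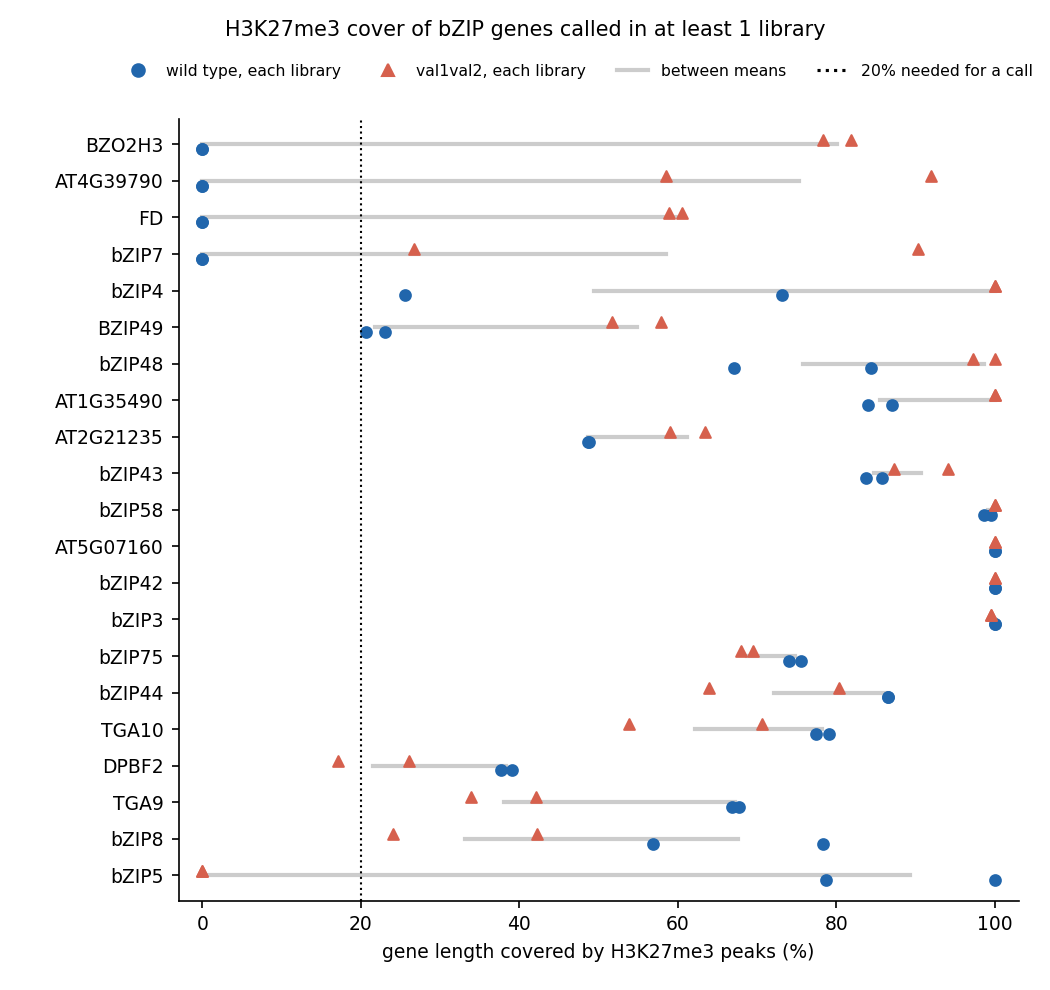
Percentage of gene length under H3K27me3 peaks at the 21 bZIP genes called in at least 1 library, ordered by the difference between genotypes. Circles are wild-type and triangles val1val2 libraries, the grey line joins the means and the dotted line is the 20% needed for a call; bZIP5 falls to 0 and FD, BZO2H3, bZIP7 and AT4G39790 rise from 0, while most genes at full cover in wild type stay there.

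Among the 17 genes marked in wild type, both val1val2 covers lay below both wild-type covers at 8 (beside 29.4% of all genes marked in wild type) and above both at 7 (beside 29.1%). The median difference was 0.0 percentage points, as it was over all marked genes. The median of the mean covers was 78.3% in wild type and 72.2% in val1val2, beside 86.3% and 86.9% over all marked genes. bZIP42 and AT5G07160 had full cover in all 4 libraries.

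The largest falls in cover at genes called in all 4 libraries were those of bZIP8 and TGA9, the 2 of 15 kept bZIP genes whose mean was lower by 20 points or more (beside 6.79% of all kept genes). bZIP8 of group S had 56.9% and 78.4% cover in wild type, against 24.0% and 42.3% in val1val2 (means 67.6% ± 15.2 and 33.1% ± 12.9, SD, n = 2). Its peaks shrank from 2584 and 2846 bp, over several genes, to 261 and 459 bp, and their folds were 3.97 and 3.66 in wild type against 1.37 and 1.58. The val1val2 peaks, at −log10 q of 0.533 and 1.59, were weak, and at −log10 q of at least 2 bZIP8 was called lost. VAL1 had a summit there in replicate 2 only, and VAL2 had none.

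TGA9, which acts with TGA10 in anther development, had 67.8% and 66.8% cover in wild type, against 42.2% and 33.9% in val1val2 (67.3% ± 0.693 and 38.1% ± 5.82, SD, n = 2). A single wild-type peak of 4564 and 4498 bp was replaced in both val1val2 libraries by 2 peaks, the longer of 1613 and 1644 bp, on either side of a gap. The shared VAL1 summits at 2232 and 3164 bp from the start in replicate 1 fell in that gap. The 3′ peak that remained had folds of 2.78 and 2.87, against 1.95 and 1.91 for the whole wild-type peak. Its pileup, the coverage signal, was not higher, at 95.2 and 102 against 104 and 113. TGA10 had 79.1% and 77.4% cover in wild type, against 70.6% and 53.9% in val1val2 (78.3% ± 1.17 and 62.2% ± 11.8, SD, n = 2), so the groups did not overlap there either.

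DPBF2 had 37.7% and 39.0% cover in wild type, against 26.1% and 17.1% in val1val2 (38.4% ± 0.914 and 21.6% ± 6.34, SD, n = 2). It was thus marked in 3 of the 4 libraries, and without val1val2 replicate 1 it was called lost. The peak shortened from 2049 and 2085 bp to 719 and 423 bp. In wild type it reached 1115 and 1119 bp upstream, across the strong VAL1 summits by the start. In val1val2 replicate 1 it still included them, while in replicate 2 it lay wholly inside the gene and did not, although it held a weak VAL1 summit of replicate 1 at 495 bp (fold 1.73). Its folds were 3.03 and 3.00 in wild type, against 1.98 and 2.02 in val1val2, and its −log10 q went from 31.7 and 33.5 to 4.03 and 4.53.

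**Figure D4:**
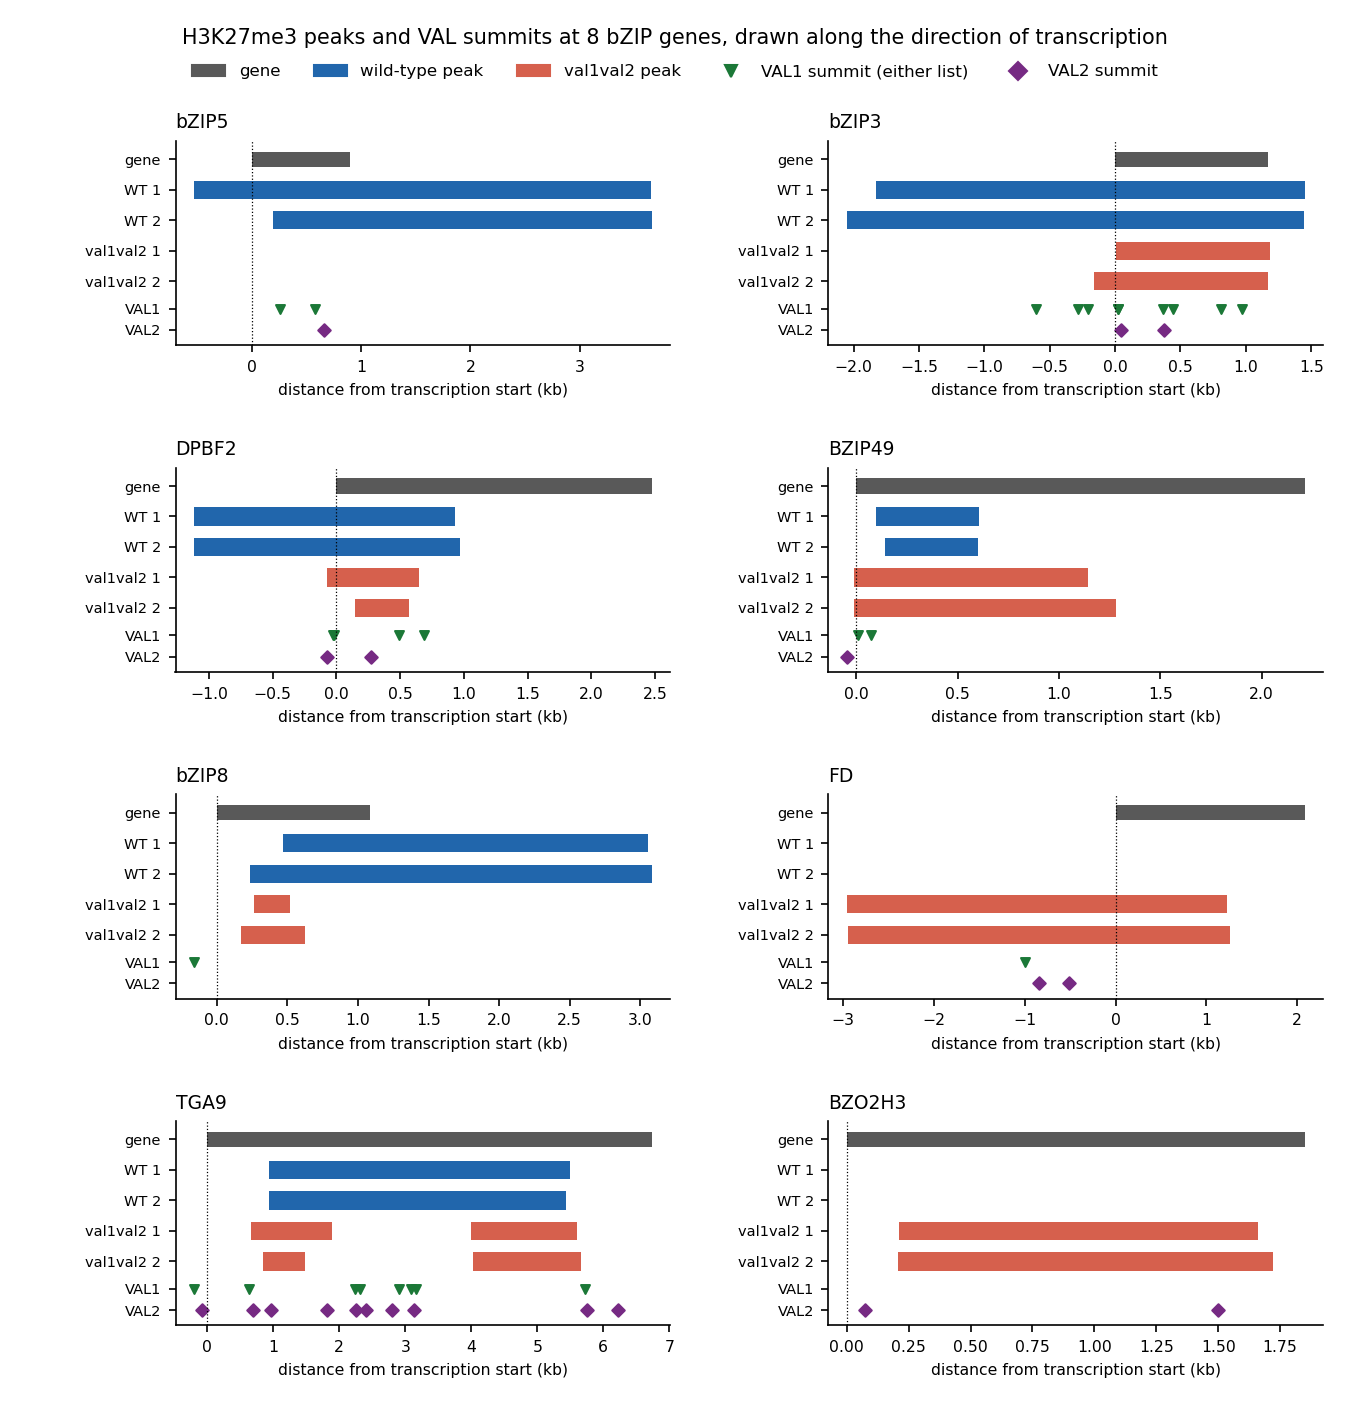
H3K27me3 peaks and VAL summits at 8 bZIP genes, drawn along the direction of transcription with distance from the transcription start in kb. Grey bars are genes, blue bars wild-type peaks, red bars val1val2 peaks, triangles VAL1 summits of either list and diamonds VAL2 summits, summits being shown from 1000 bp upstream to the gene end; at DPBF2, bZIP8, TGA9 and bZIP3 the val1val2 peaks are shorter, at BZIP49 longer, and at FD and BZO2H3 only val1val2 has peaks.

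At bZIP3, cover missed a change that the peak showed. The gene had full cover in wild type, against 99.5% and 99.6% in val1val2, yet its peak shortened from 3278 and 3495 bp to 1180 and 1329 bp. In wild type the peak began 1828 and 2052 bp upstream of the gene, and in val1val2 it began within the gene or 162 bp before it. Its fold did not separate the genotypes, at 2.49 and 2.38 in wild type, against 2.36 and 2.57 in val1val2. Its pileup did, at 89.58 and 93.08 in wild type, against 49.49 and 56.16 in val1val2. The −log10 q of the peak was also lower in val1val2, at 8.32 and 10.2, against 17.97 and 17.32 in wild type. Over the 15 kept bZIP genes, the main peak was shorter in both val1val2 libraries than in both wild-type libraries at 8 (beside 37.8% of all kept genes) and longer at 7 (beside 34.1%). The fold of the main peak was lower in this sense at 6 (beside 39.7%) and higher at 7 (beside 41.2%).

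Cover was higher by 20 points or more in val1val2 at 3 of the 15 kept genes (beside 11.4% of all kept genes), BZIP49, bZIP4 and bZIP48. BZIP49, a membrane-tethered factor of the BZIP17 and BZIP28 kind, had 23.0% and 20.6% cover in wild type, just past the threshold, and 51.7% and 57.9% in val1val2 (21.8% ± 1.69 and 54.8% ± 4.38, SD, n = 2). Its peaks grew from 509 and 456 bp to 1155 and 1295 bp, and their folds from 2.07 and 2.15 to 4.74 and 4.64, the highest val1val2 folds among the marked bZIP genes. The −log10 q was 4.32 and 5.51 in wild type, against 40.2 and 40.03 in val1val2, so that at a −log10 q of at least 10 BZIP49 was called gained. VAL1 summits at 72 and 6 bp from the start, with folds of 2.08 and 3.25, lay inside both val1val2 peaks and outside both wild-type peaks. The VAL2 summit at −48 bp, with a fold of 3.66, lay outside all 4 peaks.

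bZIP4 had 73.2% and 25.6% cover in wild type and full cover in both val1val2 libraries (49.4% ± 33.7 and 100%, SD, n = 2). The gene, 519 bp long, lay at the 5′ edge of a peak that reached 4904 bp beyond its 3′ end in both wild-type libraries. In val1val2 that edge lay 859 and 926 bp upstream of the gene. The fold of the bZIP4 peak was lower in val1val2, at 1.60 and 1.57, against 1.96 and 1.98 in wild type. Its pileup was higher, at 92.9 and 93.7, against 75.4 and 85.8 in wild type. bZIP48 had 67.1% and 84.4% in wild type, against 97.2% and 100% in val1val2 (75.7% ± 12.3 and 98.6% ± 1.98, SD, n = 2), under peaks with −log10 q between 0.692 and 3.50. AT1G35490 had 87.0% and 84.0% in wild type and full cover in val1val2, and its folds went from 1.64 and 1.85 to 2.98 and 3.00. It too was called gained at a −log10 q of at least 10, and no other bZIP gene was (2 genes, beside 3.29% of all genes). VAL1 had a summit at AT1G35490 in replicate 1 only and VAL2 had none.

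Of the S1 genes, whose products pair with group C factors in the response to low energy, bZIP44 was the only marked one among the 4 members. It had 86.6% cover in both wild-type libraries and 64.0% and 80.4% in val1val2 (72.2% ± 11.6, SD, n = 2). Its peak was 3730 and 3773 bp long in wild type, and 839 and 3674 bp in val1val2, where the replicates differed. bZIP44 had VAL1 folds of 1.43 and 2.49 and a VAL2 fold of 3.38. bZIP1, bZIP2 and BZIP53 had no H3K27me3 cover in any library, and all 3 also had VAL summits. bZIP1 had VAL1 folds of 1.71 and 3.61, at 497 and 695 bp from the start, and a VAL2 fold of 2.80. bZIP2 had a VAL1 summit in replicate 2 only, of fold 3.92, with a VAL2 fold of 3.27. BZIP53, an activator of seed maturation genes, had VAL1 folds of 1.35 and 1.96 and a VAL2 fold of 3.38. Its VAL1 summits lay at different sites, 711 and −352 bp from the start, with −log10 q of 0.159 and 1.69.

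In group C, BZIP9, BZIP25 and BZO2H1 (also bZIP10) had no cover in any library, which left BZO2H3 as the only one with the mark. BZIP25 had VAL1 summits of fold 1.58 and 3.86 at 2613 and 2618 bp from the start, in the 3′ untranslated exon of a gene of 2644 bp, and a VAL2 summit of fold 2.16 at 2603 bp. BZO2H1 had summits in VAL1 replicate 2 (fold 2.41) and VAL2 (fold 2.79), and BZIP9 had none.

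In group A, the members besides DPBF2 and FD had no H3K27me3 cover. EEL, a regulator of late embryogenesis genes, had VAL1 folds of 1.72 and 3.33, at 1140 and 563 bp from the start, and a VAL2 fold of 3.07. AT5G44080 had a summit in VAL1 replicate 2 (fold 2.21) and in VAL2 (fold 1.64). BZIP27 (also FDP), the closest relative of FD, and AT5G42910 had no summit in any list. HY5 of group H was also without cover, with VAL1 folds of 2.16 and 2.69 and a VAL2 fold of 2.51.

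Groups D, F and I held further members with VAL summits and little or no mark. In group D, PAN, which sets floral organ number, stayed below a call, with a cover of 0 and 12.2% in the wild-type and 9.01% and 7.77% in the val1val2 libraries, and had no VAL summit. TGA7 had VAL1 folds of 1.83 and 2.27 and a VAL2 fold of 3.45. In group F, bZIP23, which acts in zinc deficiency, had VAL1 folds of 2.16 and 3.16 and no VAL2 summit. BZIP24, of the salt response, had the highest VAL2 fold of the 66 members, 3.75, with VAL1 folds of 1.81 and 3.05. bZIP52 of group I had VAL1 folds of 2.11 and 3.01, at 1489 and 40 bp from the start, and a VAL2 fold of 2.31. bZIP23, BZIP24 and bZIP52 had no H3K27me3 cover.

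VAL1 summits and the mark overlapped about as they did in the genome. Of the 17 bZIP genes marked in wild type 9 had a VAL1 summit in both lists (52.9%, beside 46.8% of all such genes), and of the 45 with no call in any library 20 had one (44.4%, beside 34.9%). Within 250 bp upstream to 50 bp downstream of the start, an RY core was present at 12 of the 66 bZIP genes (18.2%, beside 9.72% of all genes). DPBF2, bZIP75, bZIP3 and bZIP43 were the 4 among those marked in wild type. The G-box CACGTG was present at 8 (12.1%, beside 7.68%).

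Known regulators and partners of bZIP proteins were counted as lists. Of 18 genes of core ABA signalling (receptors, PP2C phosphatases and SnRK2 kinases), 4 were marked in wild type, 1 was lost, 3 were kept and 14 were unmarked in every library, beside 25.6%, 2.03%, 23.0% and 65.0% of all genes. The lost gene was the receptor gene PYL5, with 32.3% and 36.7% cover in wild type, 0 in val1val2, and VAL1 folds of 3.01 and 6.40. The kept genes were the receptor genes PYL2 and PYL6 and the phosphatase gene AHG1, whose cover was 39.7% ± 2.67 in wild type and 63.3% ± 22.7 in the mutant (SD, n = 2). Of 12 other partners of bZIP proteins, 5 were marked in wild type (beside 25.6% of all genes), 4 were kept (beside 23.0%) and 1 was lost (beside 2.03%). The lost gene was ROXY1, a glutaredoxin gene whose product binds TGA9 and TGA10. ROXY1 had 52.4% and 63.2% cover in wild type, against 0 in val1val2, with VAL1 folds of 2.46 and 3.71. FT, whose product binds FD, was kept at 62.3% ± 1.05 in wild type, against 67.4% ± 1.08 in val1val2, with no VAL summit, and ROXY2, BOP1 and BOP2 were kept at means of 91.3% or more in both genotypes.

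Of the 17 classified bZIP genes outside the rule, none was marked in wild type and 16 were unmarked in every library, so the marked share depends on which annotation defines the family. The exception was ABF1, with 17.8% and 34.0% cover in val1val2 only. HYH, the relative of HY5, had VAL1 folds of 5.76 and 11.7 and a VAL2 fold of 6.27, above DPBF2, and no H3K27me3 cover.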

How the data were processed

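Chromatin immunoprecipitation with sequencing was analysed from the peak lists that the authors deposited for 7 of 12 samples. The second VAL2-GFP list and the 4 inputs were not analysed here. Each list was called on its own sample with MACS2 on TAIR10, per the submitters' processing notes, which also name TopHat2 2.1.1, Cufflinks 2.2.1 and Cuffdiff without a role. Which aligner, control and settings were used is not given in the sources used here. In the deposited lists pileup is a coverage signal, fold enrichment a ratio over local background, and significance is −log10 p and −log10 q. A spreadsheet error stands in place of their header names, so both were read in MACS2 order, and the value read as −log10 q never exceeded that read as −log10 p. H3K27me3 lists hold broad regions, GFP lists 1 line per summit.

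Genes and sequence are those of the RefSeq annotation of TAIR10.1, and every peak ended within its chromosome. Peaks were merged within a library before cover was computed with Python 3.11.15, numpy 2.4.6 and pandas 2.3.3. Intervals of shares are exact (scipy 1.17.1). Calls were tested on simulated peaks. Classified groups and partner lists came from general knowledge. The members and lists were chosen with earlier results of these data known. Described individually by rule were genes lost or gained, kept genes whose means differed by 20 points, the 10 highest VAL1 folds, genes within 5 points of the threshold, and groups A, C, H and S1, 28 in all. Others named with values were chosen after these were seen: bZIP42, AT5G07160, AT1G35490, bZIP43, PAN, TGA7, BZIP24, ABF1 and HYH. Alternatives were the −log10 q and cover thresholds, equal numbers of peaks (the 8324 with the highest −log10 q), the binding window, the RY window, and leaving out each library.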

Additional observations from a re-analysis of the deposited data

How the results depend on the processing

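The count of bZIP genes marked in wild type fell from 17 to 10, and in val1val2 from 19 to 9, at a −log10 q of at least 10. Losses, 1 in the deposited lists, were 2 at −log10 q of at least 2 (bZIP5 and bZIP8), 3 at 10 (bZIP8, bZIP44 and DPBF2) and 3 at a cover of at least 50% (bZIP5, bZIP8 and TGA9). Leaving out 1 library gave 1 to 2 losses, the second being DPBF2 without val1val2 replicate 1. Gains, 4 in the deposited lists, were 2 at −log10 q of at least 10, BZIP49 and AT1G35490, so none of the 4 was called there. VAL1 was at 13 genes at −log10 q of at least 2, at 1 at 10, and at 19 within gene bodies alone, against 29. Leaving out 1 VAL1 list gave 32 to 46, 46 being without replicate 1. VAL2 was at 7 genes at −log10 q of at least 10, against 41. The causes were not tested. An RY core lay at 12 of 24 VAL1 summits within 50 bp and at 17 within 200 bp, against 16. No paired analysis was possible because the values come from no test, exact permutation of 2 against 2 libraries giving no p under 0.333. Depth is unknown, so no limit of detection can be given for genes without a peak.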
